A study of Mus musculus with 9 samples.

Results

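The urokinase and tissue-type plasminogen activators (Plau and Plat), the urokinase receptor (Plaur) and the protease inhibitor Serpine2 were examined in mouse mammary tumours. The set was defined by gene symbol: 4 of the 32286 features of the count matrix carried these names, and all 4 were found. Plasminogen activators cut the circulating zymogen plasminogen into plasmin, a broad protease that dissolves fibrin, cleaves matrix proteins and activates other proteases. Urokinase, the product of Plau, works at the cell surface when bound to its receptor Plaur, and in tumours this pair is known for its part in invasion and matrix turnover. Plat is best known for the dissolution of clots in vessels, while Serpine2, also called protease nexin-1, inhibits thrombin and both activators.

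The tumours were grown from 168FARN cells, a mouse mammary carcinoma line, injected into the mammary fat pads of female Balb/c mice. All tumour cells carried an H2B-mCherry reporter (H2BMc), and groups were WT cells, Kmt2c KO cells or Kmt2d KO cells, with 3 libraries of primary tumours each. Kmt2c and Kmt2d encode related histone methyltransferases that act at enhancers. Each knockout was a pool made with guides against the gene, so the 3 tumours of a group stem from the same cell pool and p-values measure the spread between tumours, not between knockout lines. The knockouts were in the injected cells only. Tumours were digested, frozen as complete suspensions, cleared of dead cells on Percoll and profiled by droplet single-cell RNA sequencing from the 5′ end.

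The 9 libraries held 89147 barcodes and 585680611 unique molecular identifiers (UMIs), of which 58645 cells passed the study's filter and 16707 of those had at least 1 H2BMc UMI (361 to 3434 per library). The median depth of H2BMc-positive cells was 13729 to 24081 UMIs in the WT libraries, 8661 to 11824 in Kmt2c KO and 11222 to 14789 in Kmt2d KO. Among the barcode sequences of kept cells, 1889 of 56715 occurred in more than 1 library. Kmt2d KO library 2 stood apart from the other libraries of its group, so values of the 4 genes against WT that change sign or lose their call without it are given both ways. H2BMc-positive cells held Krt8 (235 to 569 CPM, UMIs scaled to a common total as counts per 1000000) but almost no Krt18 or Epcam (at most 0.46 and 0.033 CPM), and Kmt2c transcripts in Kmt2c KO cells were not called against WT (log2 fold change -0.03 ± 0.10 SE, adjusted p = 0.878, edgeR), nor Kmt2d transcripts in Kmt2d KO cells (0.54 ± 0.15, adjusted p = 0.104). The guides cut in the first exon, and counts of these transcripts do not check the knockouts.

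The genes lie apart in the genome (RefSeq annotation of GRCm38.p6, the mm10 build named by the submitters). Plau (ENSMUSG00000021822) spans chr14:20836662-20843388, Plaur (ENSMUSG00000046223) chr7:24460937-24475970, Plat (ENSMUSG00000031538) chr8:22757722-22782848 and Serpine2 (ENSMUSG00000026249) chr1:79794317-79858665. Promoter sequences from RefSeq were at hand for Plaur and Serpine2, and are shown because 43.7% of H2BMc-positive cells had a Plaur UMI and 0.0359% a Serpine2 UMI. Each run is the 250 bases before the annotated start, 5′ to 3′ on the strand of the gene, at chr7:24462233-24462482 on the plus strand for Plaur and at chr1:79858666-79858915 on the minus strand for Serpine2. The Plaur run belongs to the transcript start that the table lists, which lies inside the annotated gene span. Capitals mark matches on either strand to the AP-1 motif TGANTCA and to the GC box GGGCGG, which can overlap one another.
Plaur: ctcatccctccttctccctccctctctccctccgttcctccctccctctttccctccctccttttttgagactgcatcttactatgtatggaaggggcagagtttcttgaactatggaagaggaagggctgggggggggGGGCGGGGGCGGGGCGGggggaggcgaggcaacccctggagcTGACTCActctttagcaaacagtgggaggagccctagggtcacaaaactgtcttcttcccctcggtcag
Serpine2: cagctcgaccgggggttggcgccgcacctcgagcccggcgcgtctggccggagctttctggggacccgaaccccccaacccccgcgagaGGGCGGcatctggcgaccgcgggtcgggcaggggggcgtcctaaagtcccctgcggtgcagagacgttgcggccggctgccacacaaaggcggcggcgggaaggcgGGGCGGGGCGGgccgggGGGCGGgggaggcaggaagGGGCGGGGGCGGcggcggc
The Plaur run held 1 AP-1 match and 3 GC boxes, and the Serpine2 run 6 GC boxes and no AP-1 match. Among 32851 promoters of that length, 6.75% held TGANTCA and 32.7% held GGGCGG. These matches describe the letters and not binding.

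In H2BMc-positive cells, Plau was the member that differed by genotype. WT libraries 1, 2 and 3 held 3.70, 4.996 and 5.01 CPM of Plau. Kmt2c KO libraries 1, 2 and 3 held 16.5, 10.8 and 11.04 CPM. Kmt2d KO libraries 1, 2 and 3 held 8.22, 10.4 and 5.42 CPM. The lowest Kmt2c KO library thus lay above every WT and Kmt2d KO library, and the lowest Kmt2d KO library lay just above the WT libraries. Plau rose in Kmt2c KO against WT (4.57 ± 0.75 CPM, mean ± s.d., n = 3, to 12.8 ± 3.22 CPM, n = 3, log2 fold change 1.47 ± 0.27 SE, adjusted p = 0.00595, edgeR quasi-likelihood test with Benjamini-Hochberg adjustment over all genes). In that comparison 18.7% of the 14089 genes tested were called, 9.57% higher and 9.17% lower, and without Kmt2d KO library 2 the share called was 29.1%. The difference between Kmt2d KO (8.02 ± 2.50 CPM, n = 3) and WT was 0.76 ± 0.27 on the log2 scale and did not pass (adjusted p = 0.195, edgeR, 2.27% of genes called, and 5.79% without Kmt2d KO library 2). Kmt2d KO against Kmt2c KO gave -0.71 ± 0.24 (adjusted p = 0.170, edgeR, 0.0781% of genes called). Without Kmt2d KO library 2 the latter was -0.96 and passed (adjusted p = 0.0096, edgeR), in a fit in which 19.7% of genes were called.

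Plaur, the receptor, was more even. Its levels were 74.7, 69.0 and 84.8 CPM in WT libraries 1, 2 and 3, 90.6, 88.8 and 89.7 CPM in Kmt2c KO and 77.8, 86.9 and 74.7 CPM in Kmt2d KO. All Kmt2c KO libraries lay above all WT libraries, with 88.8 against 84.8 CPM at the closest point, and the log2 fold change of 0.24 ± 0.10 did not pass (adjusted p = 0.115, edgeR). It passed in cells with at least 2 H2BMc UMIs (0.37, adjusted p = 0.034, edgeR) and with mitotic cells left out (0.53, adjusted p = 0.011, edgeR), and was 0.01 in cells without a UMI of the matrix list described further on. Kmt2d KO and WT libraries overlapped (0.04 ± 0.10, adjusted p = 0.895, edgeR, and -0.018, adjusted p = 0.941, without Kmt2d KO library 2).

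No difference in Plat, the tissue-type activator, passed the test. WT libraries 1, 2 and 3 held 9.71, 12.004 and 10.8 CPM, Kmt2c KO 8.72, 11.7 and 12.3 CPM and Kmt2d KO 11.9, 6.55 and 12.6 CPM. The 3 groups overlapped, with a log2 fold change of -0.00 ± 0.24 for Kmt2c KO (adjusted p = 0.997, edgeR) and -0.10 ± 0.24 for Kmt2d KO (adjusted p = 0.885, edgeR). Without Kmt2d KO library 2, the lowest of the 9, the latter was 0.15 (adjusted p = 0.633, edgeR). Serpine2 was close to absent from tumour cells: 8 UMIs in all among 231692188, with 0 to 3 in any library, too few to test.

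**Figure D1:**
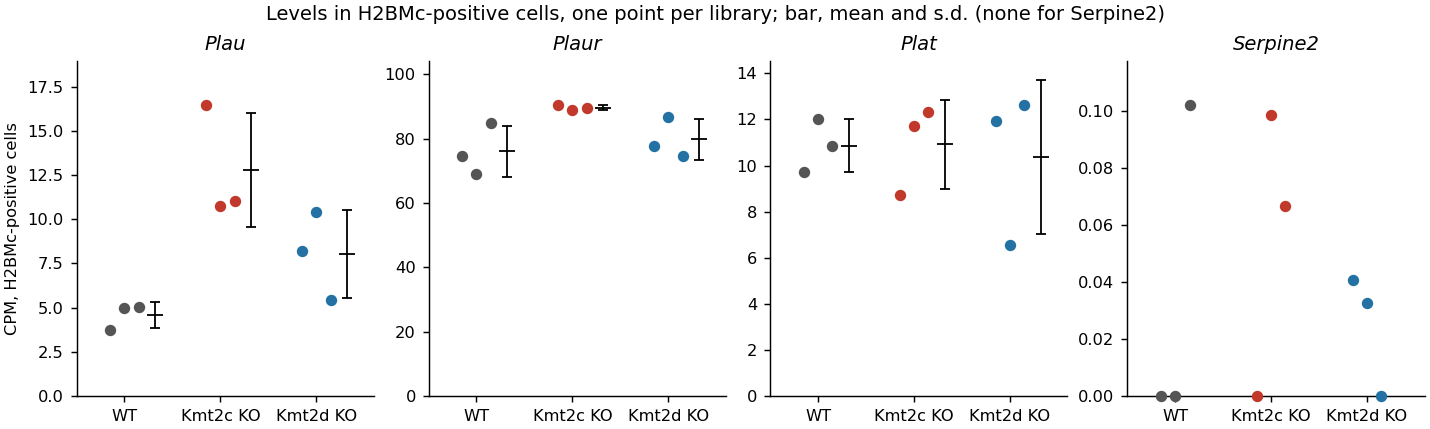
Levels of the 4 genes in H2BMc-positive cells in CPM (y axis from 0, own scale per gene) by genotype, with 1 point per library. The mean and s.d. of 3 libraries stand at the right of each group, except for Serpine2. Plau lies between 10.8 and 16.5 CPM in Kmt2c KO and at or below 5.01 CPM in WT, Plat overlaps between groups, and Serpine2 stays near 0.

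The gate gene H2BMc was itself 88.6 ± 21.2 CPM in WT, 148 ± 5.59 CPM in Kmt2c KO and 106 ± 13.8 CPM in Kmt2d KO (mean ± s.d., n = 3 each). Krt8 was lower in Kmt2c KO than in WT H2BMc-positive cells (-0.94 ± 0.18, adjusted p = 0.0065, edgeR). Krt8-positive cells were also taken as a set of their own, with or without an H2BMc UMI. They had a Krt8 UMI and fewer than 3 markers of every cell type panel described further on. In these Krt8-positive cells the Plau difference was 1.75 (adjusted p = 0.0010, edgeR). Markers of other cells were also read in the H2BMc-positive fraction. The 10 macrophage panel genes, of which 9 to 10 were detected, summed to 21.9 to 34.6 CPM in WT, 29.2 to 53.0 CPM in Kmt2c KO and 19.8 to 37.9 CPM in Kmt2d KO, against 10607 to 21754 CPM in macrophage-gated cells. At the level of C1qa, C1qb, C1qc, Csf1r and Adgre1, 0.052% to 0.31% of the RNA of macrophage-gated cells would carry 0.074 to 0.44 CPM of Plau. With Pecam1 and Cdh5 as the gauge, endothelial RNA would carry 0.22 to 0.44 CPM of Plau in WT, 0.62 to 0.84 CPM in Kmt2c KO and 0.28 to 0.76 CPM in Kmt2d KO. Kmt2c KO thus lay above WT without overlap on this gauge, which rested mostly on Cdh5. Over all libraries, H2BMc-positive cells held 278 Pecam1 and 1971 Cdh5 UMIs, against 3344 and 3518 in endothelial-gated cells. The proportions of these markers differed, so the gauge cannot be read as endothelial RNA alone. Whether tumour cells themselves held Cdh5 was not tested. Leaving out every cell with a UMI of C1qa, C1qb, C1qc, Pecam1 or Cdh5 left the Plau difference in Kmt2c KO at 1.44 (adjusted p = 0.0087, edgeR). Cells thinned to 2000 UMIs gave 1.53 without passing (adjusted p = 0.093, edgeR).

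Plau and Plaur were higher in mitotic tumour cells and Plat was lower. H2BMc-positive cells with at least 2 of 10 mitotic genes (among them Top2a, Mki67 and Cdc20) were compared with cells that had none, within each library, by a two-sided exact sign-flip permutation test over 9 libraries. Plau was 13.8 ± 7.30 CPM in mitotic and 2.59 ± 1.47 CPM in non-mitotic cells (mean ± s.d., n = 9), a mean difference of 2.00 in log2(CPM + 1) that was positive in 9 of 9 libraries. In WT library 1 the pair of values was 4.89 and 0.94 CPM, and in Kmt2c KO library 1 it was 26.4 and 4.16 CPM. Plaur was 111 ± 13.0 CPM in mitotic and 48.5 ± 7.28 CPM in non-mitotic cells (difference 1.19, higher in 9 of 9 libraries). Plat was 8.18 ± 1.95 CPM in mitotic and 13.9 ± 2.13 CPM in non-mitotic cells (difference -0.72, higher in 0 of 9). Each of these had an exact permutation p of 0.0039, the smallest that 9 libraries allow, and an adjusted p of 0.00586 over 12 tests. Mitotic cells had median depths of 13429 to 37686 UMIs and the others 6826 to 16379, and in cells thinned to 2000 UMIs the Plau difference was 1.47 (adjusted exact permutation p = 0.054) and that of Plat -0.94 (adjusted exact permutation p = 0.054), while that of Plaur was 1.16 (adjusted exact permutation p = 0.0234).

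The genotype difference of Plau was present in mitotic cells and in the remaining cells, here all those with fewer than 2 mitotic genes. Among mitotic cells alone it was 1.66 (adjusted p = 0.0018, edgeR) for Kmt2c KO against WT, and with mitotic cells left out it was 1.42 (adjusted p = 0.016, edgeR). The mitotic share of H2BMc-positive cells was 31.9% to 42.9% in WT, 25.7% to 36.8% in Kmt2c KO and 28.2% to 51.4% in Kmt2d KO libraries, and in cells thinned to 2000 UMIs 17.1% to 21.3%, 15.4% to 24.8% and 16.5% to 33.6%, with overlap between the groups.

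H2BMc-positive cells were also ordered by a list of 6 matrix genes. With this list (Col3a1, Col5a2, Aspn, Ptgds, Dcn and Lum), chosen after the data were seen and sharing Dcn and Lum with the fibroblast panel used further on, the upper and lower tertiles of cells by share of UMIs were set side by side. Plau was 2.83 ± 2.99 CPM in the upper and 11.6 ± 4.86 CPM in the lower tertile (difference -1.98, higher in 0 of 9 libraries). Plaur was 38.1 ± 10.3 CPM in the upper and 106 ± 7.91 CPM in the lower tertile (difference -1.49, higher in 0 of 9). Plat was 15.8 ± 3.70 CPM in the upper and 8.81 ± 1.86 CPM in the lower tertile (difference 0.77, higher in 9 of 9). The 3 had an adjusted exact permutation p of 0.00586, and thinned cells gave -1.19 for Plau (adjusted exact permutation p = 0.111), -1.24 for Plaur (0.0234) and 0.66 for Plat (0.054). After thinning, 16.0% to 23.1% of Kmt2c KO cells and 18.7% in Kmt2d KO library 2 held a list UMI, less than a tertile. The upper tertile there was filled up with cells without one, so the thinned values do not separate depth from the split. Median depths were 8514 to 16663 UMIs in the upper and 8692 to 34888 in the lower tertile. Cells with a UMI of the list made up 67.1% to 72.8% of H2BMc-positive cells in WT, 33.5% to 44.9% in Kmt2c KO and 42.4% to 66.3% in Kmt2d KO libraries. In cells thinned to 2000 UMIs (357 to 923, 2231 to 3364 and 1832 to 2534 cells per library that reached this depth, in the same order) the shares were 34.7% to 43.3%, 16.0% to 23.1% and, in Kmt2d KO libraries 1, 2 and 3, 37.8%, 18.7% and 39.7%. Kmt2c KO thus lay below WT without overlap at either depth, while Kmt2d KO libraries 1 and 3 fell within the WT range after thinning. In cells without any UMI of the list, Plau was higher in Kmt2c KO than in WT (1.16, adjusted p = 0.012, edgeR). That subset kept a smaller share of WT than of Kmt2c KO cells, so it does not compare matched cells.

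Tertiles by interferon and hypoxia lists were set side by side in the same way. In the upper tertile of 10 interferon-induced genes, Plau was 6.37 ± 4.90 against 10.5 ± 4.27 CPM (difference -0.85, higher in 1 of 9 libraries, adjusted exact permutation p = 0.0208), Plaur 64.1 ± 10.1 against 98.6 ± 12.5 CPM (-0.62, higher in 0 of 9, adjusted exact permutation p = 0.00586) and Plat 12.1 ± 2.26 against 9.34 ± 1.96 CPM (0.35, higher in 9 of 9, adjusted exact permutation p = 0.00586). None of the 3 passed in thinned cells (adjusted exact permutation p = 0.054, 0.0703 and 0.103). Median depths were 7110 to 19046 UMIs in the upper and 10013 to 33542 in the lower interferon tertile. By the hypoxia list, differences were -0.14 for Plau (higher in 1 of 9, adjusted exact permutation p = 0.0384), 0.17 for Plaur (higher in 6 of 9, adjusted exact permutation p = 0.0384) and 0.29 for Plat (higher in 7 of 9, adjusted exact permutation p = 0.0391). The hypoxia results were lost when most single libraries were left out (7 of 9 for Plau and Plat, 6 of 9 for Plaur). None of them passed in thinned cells, where they were -1.27 for Plau (adjusted exact permutation p = 0.0536), 0.15 for Plaur (0.148) and 0.45 for Plat (0.103). Between the outer 25% of cells by the hypoxia list, Plau (-0.17, adjusted exact permutation p = 0.570) and Plat (0.24, 0.0682) did not pass either.

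**Figure D2:**
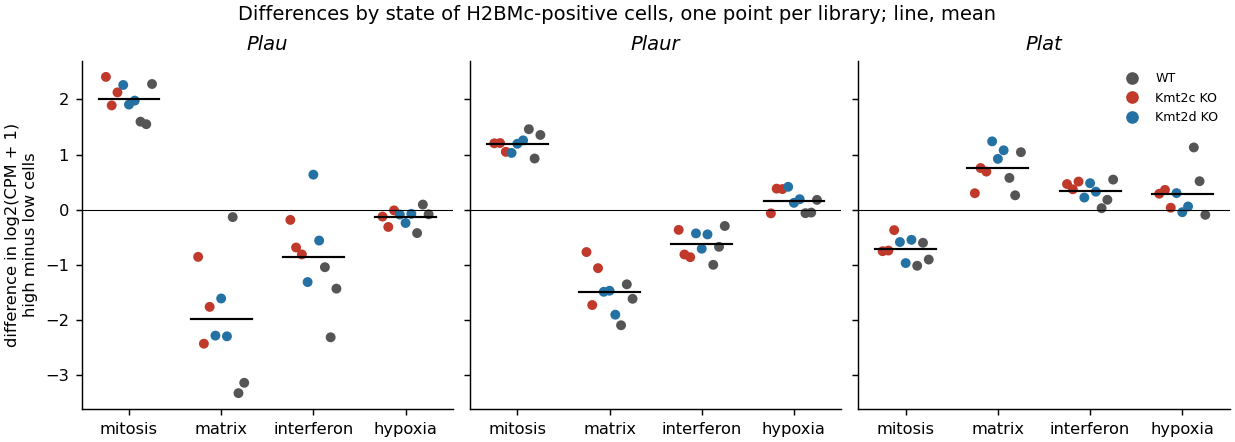
Differences in log2(CPM + 1) between high and low H2BMc-positive cells (y axis) for mitosis, matrix, interferon and hypoxia lists (x axis), with 1 point per library coloured by genotype and a line at the mean of 9 libraries. Plau and Plaur lie above 0 for mitosis and below 0 for matrix in every library, and Plat lies on the other side of 0 in both.

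Across the 9 libraries of H2BMc-positive cells, Plau and Plaur had a Pearson r of 0.80 in log2(CPM + 1), Plau and Plat -0.31, and Plaur and Plat -0.36, given as descriptions since libraries share genotype and depth. Among 8660 genes with a mean of at least 10 CPM, those most like Plau were Asap2 (r = 0.98), Vim (0.97), the intermediate filament of mesenchymal cells, and Mgrn1 (0.96). For Plaur they were Znrf2, Miga2 and Nek6 (each 0.95). For Plat they were Gaa (0.93), Grina (0.89) and Mmp14 (0.89), a membrane-anchored matrix metalloproteinase.

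The wider plasminogen system was followed with 33 genes, of which 18 had enough counts to test in H2BMc-positive cells. For Kmt2c KO against WT, 6 rose and 1 fell, beside 18.7% called among all genes, and the median log2 fold change was 0.18 for the list and -0.00 for all genes. Besides Plau, the genes that rose were Eno1, a glycolytic enzyme that can bind plasminogen at the cell surface, Mrc2, Lrp1, Vldlr and Itga5. For Kmt2d KO against WT, only Mrc2 rose of the 18, beside 2.27% of all genes called and 1.04% called higher. Of the 18, 5 had an unadjusted edgeR p under 0.05. That threshold is looser than the one of these shares, so the 5 cannot be read against them. DESeq2 called 3 in this contrast, beside 4.60% of all genes. By edgeR, 0 were called in thinned cells and in the fits without any 1 WT library, Kmt2d KO library 1 or Kmt2d KO library 3 (0.558% to 1.59% of all genes called). In these fits 3 to 6 system genes had an unadjusted p under 0.05, again a looser threshold than that of the shares. For Kmt2d KO against Kmt2c KO edgeR called 0 of 18, beside 0.0781% of all genes, and 7 had an unadjusted p under 0.05, beside 17.8% of all genes. DESeq2 called 3, beside 4.06% of all genes, and edgeR called 7 without Kmt2d KO library 2, beside 19.7%.

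Among surface binders, Eno1 was 114 to 159 CPM in WT, 288 to 346 CPM in Kmt2c KO and 187 to 226 CPM in Kmt2d KO libraries. Its log2 fold change in Kmt2c KO was 1.19 ± 0.14 (adjusted p = 0.00067, edgeR), though reads could be shared with the near-identical retrogene Eno1b. S100a10, the subunit that holds plasminogen at the membrane together with Anxa2, was 1301 to 1410 CPM in WT and 1030 to 1181 CPM in Kmt2c KO and fell by 0.30 on the log2 scale (SE 0.08, adjusted p = 0.0238, edgeR). That call was lost without any 1 of the 3 WT libraries, Kmt2c KO library 1 or Kmt2c KO library 2 (-0.31 to -0.25, adjusted p = 0.0597 to 0.104, edgeR). It was also lost without the low-count filter (-0.26, adjusted p = 0.082, edgeR), with at least 2 H2BMc UMIs (-0.32, 0.065), in thinned cells (-0.27, 0.086), with mitotic cells left out (-0.22, 0.132) and in mitotic cells alone (-0.20, 0.111). Anxa2 itself did not pass (0.12 ± 0.08, adjusted p = 0.330, edgeR).

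Of the 5 clearance and endocytosis genes, Mrc2, Lrp1 and Vldlr rose in Kmt2c KO, and Lrpap1 and Igf2r did not pass. Mrc2, the endocytic collagen receptor that associates with Plaur, was 96.2 to 113 CPM in WT and 171 to 200 CPM in Kmt2c KO (0.78 ± 0.08, adjusted p = 0.00049, edgeR). Mrc2 was 141 to 153 CPM in Kmt2d KO (0.43 ± 0.08 against WT, adjusted p = 0.0234, edgeR), a call lost in 5 of the 9 fits that each left out 1 library, in thinned cells (0.43, adjusted p = 0.219, edgeR) and with mitotic cells left out (0.36, adjusted p = 0.139, edgeR). Lrp1, which takes up inhibitor-bound urokinase, was 542 to 626 CPM in WT and 723 to 916 CPM in Kmt2c KO (0.45 ± 0.09, adjusted p = 0.0080, edgeR), but did not pass with mitotic cells left out (0.28, adjusted p = 0.086, edgeR). Vldlr, a related uptake receptor, was 9.20 to 11.5 and 16.2 to 19.7 CPM (0.86 ± 0.19, adjusted p = 0.0129, edgeR), a call lost without WT library 1 (0.80, 0.0542) or WT library 3 (0.83, 0.0516) and in Krt8-positive cells (0.56, adjusted p = 0.052, edgeR). Itga5, an integrin chain that partners Plaur, was 69.4 to 77.8 and 87.4 to 109 CPM (0.41 ± 0.09, adjusted p = 0.0103, edgeR).

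Serping1, an inhibitor of plasma proteases, held 178 UMIs in all and did not pass (adjusted p = 0.067, edgeR). Plg, the gene of plasminogen, had 4 UMIs, so the substrate of these activators was close to absent from tumour cell transcripts, and A2m and Serpina5 had none.

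**Figure D3:**
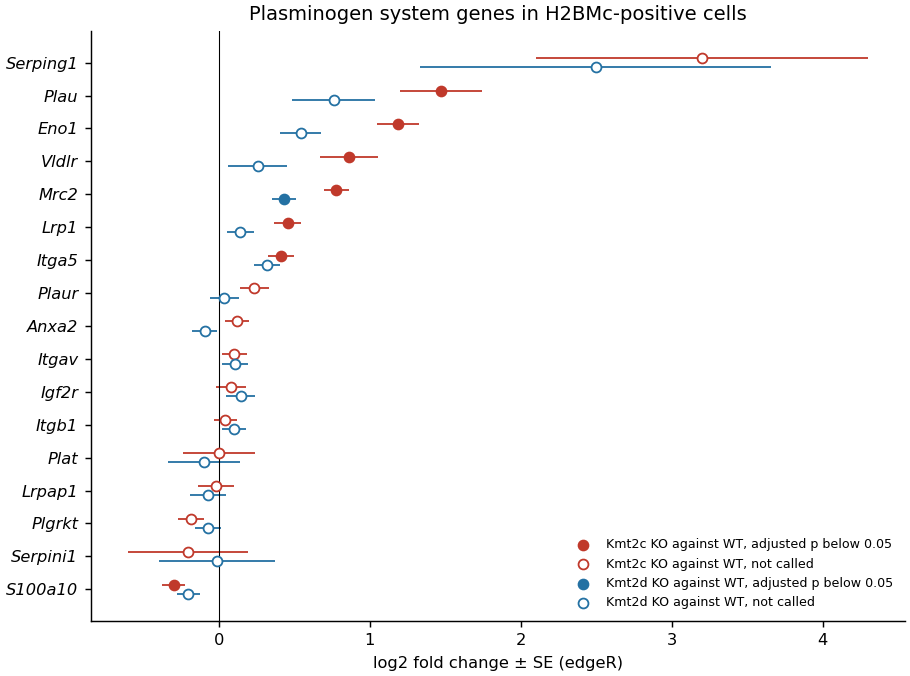
Log2 fold changes with SE (x axis) of tested plasminogen system genes in H2BMc-positive cells for Kmt2c KO (red) and Kmt2d KO (blue) against WT, with filled points for an adjusted p below 0.05. Plau (1.47), Eno1 (1.19), Vldlr, Mrc2, Lrp1 and Itga5 are filled to the right of 0 in Kmt2c KO and S100a10 to the left, while in Kmt2d KO Mrc2 is filled.

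Host cells were taken as cells without H2BMc or Krt8 UMIs and with at least 3 markers of a cell type panel. This gave 840 macrophage-gated cells (35 to 212 per library), 425 endothelial-gated (30 to 70), 354 T and NK-gated, 120 dendritic-gated and 115 mural-gated cells (3 to 25). The share of H2BMc-positive cells that met the same marker counts was 0.76% for macrophages (127 cells), 0.395% for endothelium (66 cells) and 0.0239% for mural cells (4 cells). The fibroblast panel was met by 28.2% of H2BMc-positive cells and was not used alone. Host cells that met it and also held Col1a1 and Col1a2 (134 cells) are given as fibroblast-panel cells with collagen I. The collagen I requirement was added after the data were seen. The same markers were met by 13 H2BMc-positive cells, 0.0778% of that fraction.

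Macrophage-gated and endothelial-gated cells held the most Plau per UMI, followed by fibroblast-panel cells with collagen I. Summed over libraries, Plau was 143 CPM in macrophage-gated cells (95% Poisson interval 128 to 158, counting error only), 141 CPM in endothelial-gated cells (128 to 156) and 9.31 CPM in H2BMc-positive cells (8.93 to 9.72). Within libraries, macrophage-gated exceeded H2BMc-positive cells by 3.84 in log2(CPM + 1), in 9 of 9 libraries (two-sided exact permutation p = 0.0039, the smallest possible, adjusted p = 0.0469 over 12 neighbouring pairs). With any of 8 libraries left out the smallest p that 8 libraries allow gave an adjusted p of 0.094. Without Kmt2c KO library 1 it stayed at 0.0469. Endothelial-gated and macrophage-gated cells did not differ beyond their spread (0.18, higher in 5 of 9 libraries, adjusted exact permutation p = 0.647). Fibroblast-panel cells with collagen I held 70.2 CPM of Plau (53.0 to 91.1). Over libraries with at least 5 cells of both gates, macrophage-gated cells exceeded them by 1.42, in 6 of 8 libraries. That difference did not pass (adjusted exact permutation p = 0.25 over 24 pairs). T and NK-gated cells held 1 Plau UMI (1.70 CPM) and dendritic-gated cells none in 434116 UMIs, a limit of 6.91 CPM.

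Per cell, 21.3% of macrophage-gated cells (179 of 840, exact 95% interval 18.6% to 24.2%) and 38.4% of endothelial-gated cells (163 of 425, 33.7% to 43.2%) had a Plau UMI, at median depths of 2336 and 4982 UMIs. H2BMc-positive cells had 7.49% (1251 of 16707, 7.09% to 7.90%) at a median of 11694 UMIs, and T and NK-gated cells 0.282% (1 of 354) at 1316 UMIs. In cells thinned to 1000 UMIs, leaving out 75 H2BMc-positive, 72 macrophage-gated, 10 endothelial-gated and 90 T and NK-gated cells, the shares were 10.8% in macrophage-gated, 10.8% in endothelial-gated, 0.728% in H2BMc-positive and 0.379% in T and NK-gated cells.

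Plaur was spread more evenly between tumour cells and the macrophage and endothelial gates, and was lower in the other host gates. It was 134 CPM in macrophage-gated (95% Poisson interval 120 to 148), 106 CPM in endothelial-gated (94.6 to 119) and 82.8 CPM in H2BMc-positive cells (81.7 to 84.0). Neither neighbouring pair differed beyond its spread, with differences of 0.01 (higher in 4 of 9 libraries, adjusted exact permutation p of 1.0) and 0.43 (higher in 8 of 9, adjusted exact permutation p = 0.429). Without Kmt2c KO library 1, where macrophage-gated cells held 5 Plaur UMIs, the latter was 0.69 and passed (adjusted exact permutation p = 0.0469). Fibroblast-panel cells with collagen I held 62.7 CPM of Plaur (46.5 to 82.6). Mural-gated cells held 6 UMIs (16.1 CPM), dendritic-gated cells 6 (13.8 CPM) and T and NK-gated cells 4 (6.81 CPM).

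Plat and Serpine2 were highest in mural-gated cells and in fibroblast-panel cells with collagen I. Plat was 221 CPM in fibroblast-panel cells with collagen I (95% Poisson interval 189 to 256), 96.9 CPM in mural-gated cells (67.8 to 134), 10.8 CPM in H2BMc-positive cells (10.4 to 11.2), 9.11 CPM in endothelial-gated cells (5.90 to 13.5) and 0.387 CPM, a single UMI, in macrophage-gated cells. Serpine2 was 557 CPM in mural-gated cells (484 to 638), 154 CPM in fibroblast-panel cells with collagen I (128 to 184), 5.10 CPM in endothelial-gated cells (2.79 to 8.56) and 0.035 CPM in H2BMc-positive cells (0.015 to 0.068). In mural-gated cells, the contractile cells around small vessels, 58.3% had a Serpine2 UMI (67 of 115, exact 95% interval 48.7% to 67.4%), against 0.847% of T and NK-gated cells (3 of 354). Macrophage-gated cells had no Serpine2 UMI in 2581804, a limit of 1.16 CPM.

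Few libraries held enough of the smaller gates. Over libraries with at least 5 cells of both gates, Serpine2 was higher in mural-gated than in fibroblast-panel cells with collagen I in 7 of 7 libraries (difference 2.55 in log2(CPM + 1); adjusted exact permutation p = 0.141 over 24 pairs). Plat was higher in fibroblast-panel cells with collagen I than in mural-gated cells in 6 of 7 libraries (2.72, adjusted exact permutation p = 0.250). At this number of libraries no pair of that wider order passed.

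**Figure D4:**
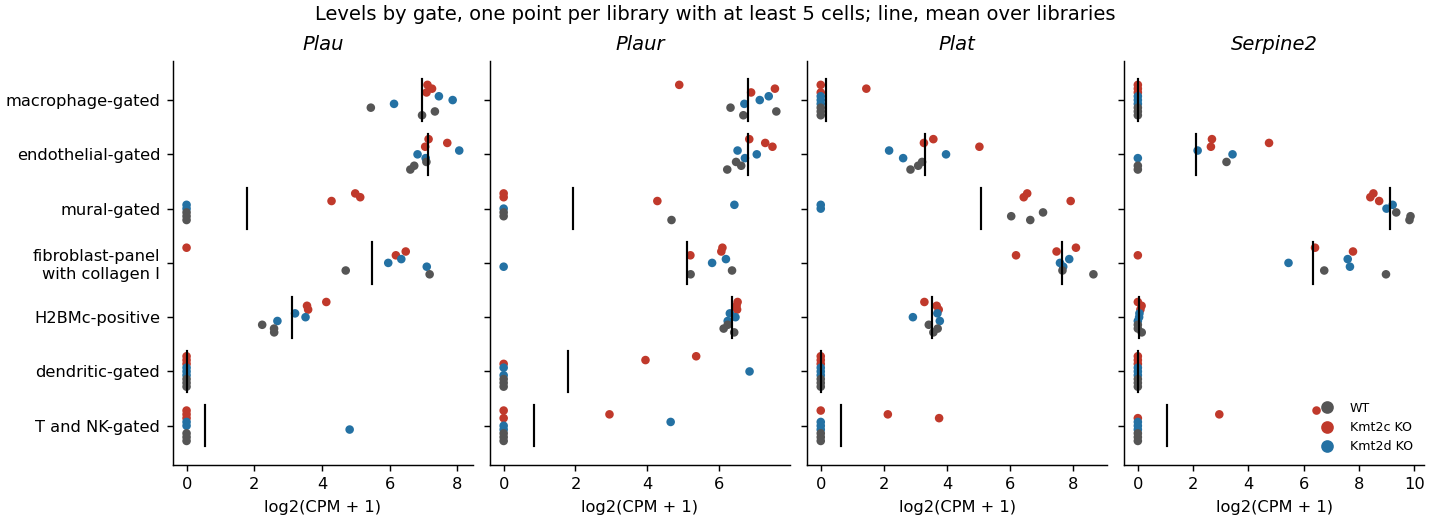
Levels of the 4 genes in log2(CPM + 1) (x axis) by gate (rows), with 1 point per library with at least 5 cells, coloured by genotype, and a line at the mean over libraries. Plau and Plaur are high in macrophage-gated and endothelial-gated cells, Plat in fibroblast-panel cells with collagen I and mural-gated cells, and Serpine2 in mural-gated cells, while H2BMc-positive cells hold Plaur but scarcely Serpine2.

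Host cells were not edited, so comparisons between them ask whether the genotype of the tumour cells was accompanied by other levels in the host. In macrophage-gated cells Plau was 42.5, 160 and 123 CPM in WT libraries 1, 2 and 3, 138, 151 and 135 CPM in Kmt2c KO and 174, 231 and 68.9 CPM in Kmt2d KO. The groups overlapped, with log2 fold changes of 0.40 ± 0.39 (adjusted p = 0.606, edgeR) and 0.63 ± 0.40 (adjusted p = 0.739, edgeR) against WT, where 9.63% and 0.735% of 5035 genes were called (12.3% and 0.347% without Kmt2d KO library 2). Plaur in these cells ranged from 28.7 to 192 CPM and did not pass either (0.05 ± 0.42, adjusted p = 0.965, and 0.23 ± 0.45, adjusted p = 0.936, edgeR). The 8 fibroblast panel genes summed to 14.5 to 48.5 CPM in WT, 101 to 275 CPM in Kmt2c KO and 83.7 to 193 CPM in Kmt2d KO macrophage-gated cells. The 9 endothelial genes summed to 30.3 to 70.6, 74.6 to 196 and 24.3 to 110 CPM in the same order, and the 8 dendritic genes to 205 to 407, 40.1 to 103 and 83.7 to 462 CPM. The 12 T and NK genes summed to 0 to 12.1, 17.2 to 36.1 and 6.89 to 11.96 CPM, and the 6 matrix genes to 3.62 to 12.1, 25.6 to 87.6 and 55.8 to 131 CPM. The macrophage panel itself was 16911 to 21754, 13153 to 15647 and 10607 to 17219 CPM, so Kmt2c KO lay below WT without overlap. The fibroblast panel genes also summed to 296 to 550 CPM in H2BMc-positive cells, so they do not tell fibroblasts from tumour cells. The part of other cells in the values of Plau and Plaur was not tested.

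The Plau difference in tumour cells was set against that in host cells in a joint fit with library as a block. For Kmt2c KO against WT, the tumour difference exceeded the macrophage-gated difference by 1.02 ± 0.36 on the log2 scale (adjusted p = 0.0767, edgeR, 6.18% of 12838 genes called) and the endothelial-gated difference by 0.97 ± 0.32 (adjusted p = 0.0648, edgeR, 3.33% of 12994 called). Neither passed. For Kmt2d KO the excess was 0.22 ± 0.38 and 0.17 ± 0.31 (adjusted p = 0.936 and 0.989, edgeR, 1.73% and 0.831% called). For Plaur in Kmt2c KO against WT, the tumour minus macrophage-gated difference was 0.21 ± 0.30 (adjusted p = 0.818, edgeR). The tumour minus endothelial-gated difference of Plaur was -0.50 ± 0.26 (adjusted p = 0.440, edgeR), so it did not pass either.

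In endothelial-gated cells it was the receptor that passed. Plaur was 87.9, 97.2 and 74.0 CPM in WT libraries 1, 2 and 3, 114, 155 and 179 CPM in Kmt2c KO and 90.5, 132 and 105 CPM in Kmt2d KO. All Kmt2c KO libraries lay above all WT libraries, on 21 to 39 UMIs per library. Plaur rose in Kmt2c KO against WT (86.4 ± 11.7 to 149 ± 32.8 CPM, n = 3 each, log2 fold change 0.83 ± 0.23, adjusted p = 0.0437, edgeR), where 6.18% of 5391 genes were called and 4.25% called higher (9.82% and 6.30% without Kmt2d KO library 2). The call was lost with DESeq2 (0.82, adjusted p = 0.153, 4.63% of genes called), with at least 2 markers (0.47, adjusted p = 0.153, edgeR) and without WT library 1 (0.83, adjusted p = 0.127, edgeR), WT library 2 (0.91, 0.092), WT library 3 (0.74, 0.149), Kmt2c KO library 2 (0.78, 0.152), Kmt2c KO library 3 (0.70, 0.204) or Kmt2d KO library 3 (0.82, 0.050). Kmt2d KO against WT gave 0.33 ± 0.23 (adjusted p = 0.702, edgeR, 0.0556% of genes called, and 0.272% without Kmt2d KO library 2).

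Plau in endothelial-gated cells was 135, 105 and 96.6 CPM in WT libraries 1, 2 and 3, 141, 207 and 131 CPM in Kmt2c KO and 265, 112 and 133 CPM in Kmt2d KO. The groups overlapped, and neither difference passed (0.58 ± 0.30, adjusted p = 0.306, and 0.63 ± 0.29, adjusted p = 0.486, edgeR).

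Markers of other cells moved within the endothelial gate. The 8 fibroblast panel genes summed to 2.06 to 7.48 CPM in WT (1 to 3 of 8 detected), 21.7 to 129 CPM in Kmt2c KO (3 to 6 of 8) and 14.6 to 140 CPM in Kmt2d KO (3 to 5 of 8). The 10 macrophage genes summed to 8.24 to 28.8, 10.5 to 59.6 and 13.9 to 24.4 CPM in the same order. The 8 mural genes summed to 79.7 to 110 CPM in WT (4 to 6 of 8 detected), 38.8 to 70.4 CPM in Kmt2c KO (2 to 3 of 8) and 76.6 to 185 CPM in Kmt2d KO (2 to 7 of 8), so they were lower in Kmt2c KO than in WT without overlap. The fibroblast panel genes also summed to 296 to 550 CPM in H2BMc-positive cells, so they do not tell fibroblasts from tumour cells. The part of other cells in the Plaur difference was not tested.

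In mural-gated cells Serpine2 was 652, 933 and 909 CPM in WT libraries 1, 2 and 3, 367, 340 and 424 CPM in Kmt2c KO libraries, and 595 and 510 CPM in Kmt2d KO libraries 1 and 3. Kmt2d KO library 2 held 3 mural-gated cells and was left out of the fit (1 Serpine2 UMI, 36.0 CPM). Among the libraries fitted the groups did not overlap: the highest Kmt2c KO library lay below both Kmt2d KO libraries, and these below every WT library. Serpine2 fell in Kmt2c KO against WT (831 ± 156 to 377 ± 43.1 CPM, n = 3 each, -1.10 ± 0.30, adjusted p = 0.0267, edgeR), in a comparison added after the data were seen, of libraries with 8 to 25 cells, where 4.99% of 882 genes were called and 1.25% called lower. The call was lost with DESeq2 (-1.12, adjusted p = 0.488, 0.394% of genes called) and without WT library 2 (-0.99, adjusted p = 0.142, edgeR), WT library 3 (-1.07, 0.075), Kmt2c KO library 1 (-1.08, 0.070) or Kmt2c KO library 2 (-1.04, 0.104). Kmt2d KO against WT gave -0.55 ± 0.36 (adjusted p = 0.714, edgeR, 0.113% of genes called).

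The mural panel itself summed to 12851 to 15205 CPM in WT and 10401 to 12480 CPM in Kmt2c KO mural-gated cells, so the panel was also lower, and the matrix list to 2383 to 3683 and 1648 to 2080 CPM. All 8 mural markers were detected in each group. Plat in these cells was 130, 64.3 and 98.2 CPM in WT, 91.8, 85.0 and 240 CPM in Kmt2c KO and not detected in Kmt2d KO libraries 1 and 3, on at most 13 UMIs per library, and had too few counts for the edgeR test. The 2 Plat UMIs of Kmt2d KO mural-gated cells lay in library 2, which was left out.

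**Figure D5:**
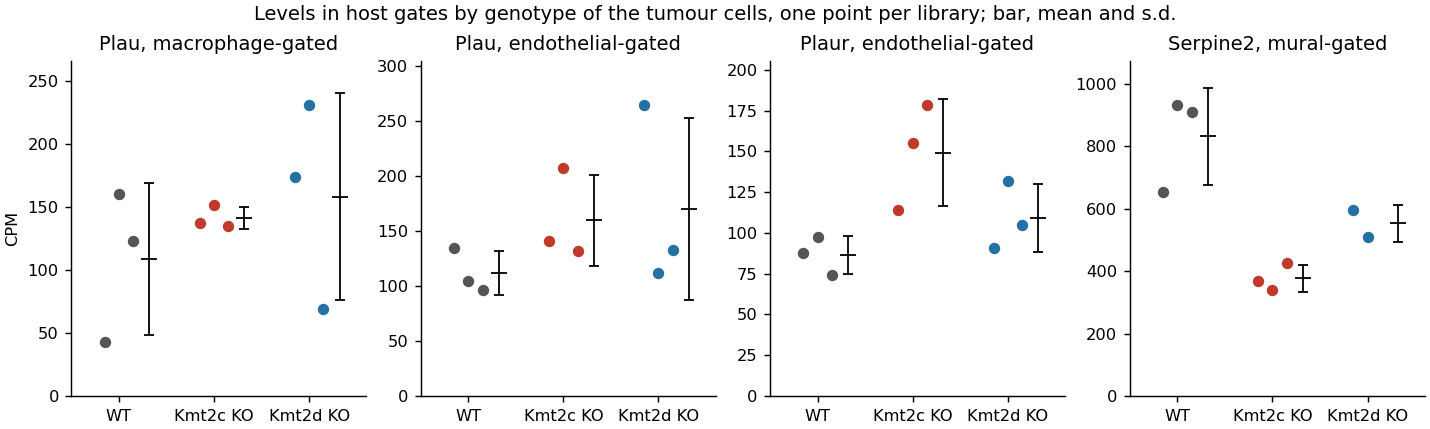
Levels in CPM (y axis from 0) of Plau in macrophage-gated and endothelial-gated cells, Plaur in endothelial-gated cells and Serpine2 in mural-gated cells by tumour genotype, with 1 point per library and the mean and s.d. at the right of each group. Plaur lies at 114 to 179 CPM in Kmt2c KO and 74.0 to 97.2 CPM in WT, Serpine2 at 340 to 424 and 652 to 933 CPM, and Plau overlaps between groups.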

How the data were processed

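Gene-level UMI counts were deposited by the authors as 1 combined matrix of 9 libraries, made with Cell Ranger 7.0.1 on mm10 (per the labels and the submitters' processing notes), with a gene for the H2BMc reporter. Libraries were assigned to genotypes by the letter in the aggregation table, and numbered in its order. Cells with over 500 and under 7500 genes and under 15% mitochondrial UMIs were kept. Counts were summed per library and gate, and gates with at least 20 cells in a library entered tests (5 in the added mural and collagen I comparisons). CPM are UMIs of a gene per 1000000 UMIs of the summed cells. Doublets were not called, and host gates excluded cells with H2BMc or Krt8 UMIs.

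Genotypes were compared with edgeR 4.0.16 (filterByExpr, TMM, quasi-likelihood test, all groups in 1 fit; R 4.3.3), with Benjamini-Hochberg adjustment over all genes and a threshold of 0.05. Gates and states were compared within libraries by two-sided exact sign-flip permutation tests on log2(CPM + 1). Poisson and Clopper-Pearson 95% intervals and limits of 3 counts cover counting error only. Alternatives were DESeq2 1.42.0, RLE size factors, no low-count filter, other cell and marker filters, a pseudocount of 10, a stricter split of cells by state, thinned cells and leaving out each library. The edgeR steps were tested on simulated data.

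The members, gene lists and tests were chosen with earlier results of these data known. Every member is named, as are system genes called in tumour cells by edgeR on all libraries with the main settings, and per member the 3 genes with the highest r. System genes called only under other settings are counted and not all named. One tested gene of the list is counted but not reported here. Protein sequences and the promoters of Plau and Plat were not used here.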

Additional observations from a re-analysis of the deposited data

How the results depend on the processing

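Gates and cell states were compared within libraries. Between genotypes, no paired analysis was possible because the replicate numbers of the labels could not be tied to the columns of the matrix. The rise of Plau in Kmt2c KO tumour cells passed under every alternative run except cells thinned to 2000 UMIs (1.53). Plaur in Kmt2c KO against WT passed with at least 2 H2BMc UMIs (0.37) and without mitotic cells (0.53). Values near 0 changed sign: Plat in Kmt2c KO against WT was 0.0037 with DESeq2, 7.2e-06 with RLE size factors, 0.035 without the low-count filter and 0.14 with at least 2 H2BMc UMIs, and Plaur in Kmt2d KO against WT was -0.035 in Krt8-positive cells, -0.018 in mitotic cells alone, -0.045 without matrix list cells and -0.0061 without cells with a macrophage or endothelial UMI. System genes called in Kmt2d KO against WT, with the share of all genes called in the same fit, numbered 3 with DESeq2 (4.60%), 2 without the low-count filter (2.20%), 0 in thinned cells by edgeR (0.558%, and 4 at an unadjusted p under 0.05, a looser threshold than that of the share), 2 in mitotic cells alone (2.6%) and 2 without matrix list cells (3.29%). Against Kmt2c KO they numbered 3 with DESeq2 (4.06%), 3 without the filter (2.22%), 1 with at least 2 H2BMc UMIs (0.965%), 1 in thinned cells (0.638%) and 1 without mitotic cells (0.604%). By state, thinned cells gave 1.47 (Plau) and -0.94 (Plat) for mitosis, -1.19 (Plau) and 0.66 (Plat) for matrix, -0.996 (Plau), -0.39 (Plaur) and 0.60 (Plat) for interferon, and -1.27 (Plau), 0.15 (Plaur) and 0.45 (Plat) for hypoxia, none of which passed. For matrix, the upper tertile of thinned cells took in cells without a list UMI in Kmt2c KO and in Kmt2d KO library 2. Comparing the outer 25% of cells gave -0.17 (Plau) and 0.24 (Plat) for hypoxia and 0.29 (Plat) for interferon, which did not pass either.

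In host gates, Plaur in endothelial-gated minus macrophage-gated cells was -0.0083 in log2(CPM + 10) and -0.12 with at least 2 markers, and Plat in T and NK-gated minus macrophage-gated cells was -0.19 with at least 2 markers. Plaur in Kmt2c KO against WT was -0.018 with at least 2 markers and -0.067 with DESeq2 in macrophage-gated cells, and 0.47 and 0.82 in endothelial-gated cells, where neither passed. With at least 4 markers, Kmt2d KO against Kmt2c KO was -0.036 for Plaur in macrophage-gated and -0.021 for Plau in endothelial-gated cells, and with at least 2 markers Plau in Kmt2c KO endothelial-gated cells was -0.074. Serpine2 in Kmt2c KO mural-gated cells was -1.12 with DESeq2 and did not pass. The cause of these changes was not tested.

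Leaving out 1 library at a time gave, for endothelial-gated minus macrophage-gated cells, -0.0021 to 0.33 for Plau and -0.24 to 0.13 for Plaur. Macrophage-gated minus H2BMc-positive cells gave 3.72 to 3.94 for Plau and 0.30 to 0.69 for Plaur, and T and NK-gated minus H2BMc-positive cells -0.050 to 0.92 for Serpine2. Hypoxia differences ran from -0.17 to -0.10 for Plau, 0.14 to 0.20 for Plaur and 0.18 to 0.33 for Plat. In tumour cells, Plat ran from -0.087 to 0.15 for Kmt2c KO against WT, -0.27 to 0.15 for Kmt2d KO against WT and -0.27 to 0.15 for Kmt2d KO against Kmt2c KO, Plaur from -0.022 to 0.14 for Kmt2d KO against WT, and Plau from -0.96 to -0.48 for Kmt2d KO against Kmt2c KO. System genes called ran from 0 to 1 for Kmt2d KO against WT, where 0.680% to 5.79% of all genes were called, and 0 to 7 against Kmt2c KO, the 7 without Kmt2d KO library 2 (19.7% of all genes) and 0 without any other (0% to 0.498%). In macrophage-gated cells, Plaur ran from -0.49 to 0.48 for Kmt2c KO against WT and -0.12 to 0.72 for Kmt2d KO against Kmt2c KO, and Plau from -0.14 to 0.53 for the latter. In endothelial-gated cells, Plaur ran from 0.70 to 0.99 for Kmt2c KO against WT and Plau from -0.41 to 0.31 for Kmt2d KO against Kmt2c KO. Serpine2 in mural-gated cells ran from -1.26 to -0.99. The tumour minus macrophage-gated difference ran from -0.29 to 0.70 for Plaur in Kmt2c KO, -0.64 to 0.051 for Plaur in Kmt2d KO and -0.059 to 0.41 for Plau in Kmt2d KO.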
